A study of Mus musculus with 3 samples.

Results

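The genes described here make, sense or inactivate prostaglandins: the cyclooxygenases Ptgs1 and Ptgs2, the terminal synthases Ptges, Ptgis and Ptgds, the receptors Ptger2, Ptger4 and Ptgir, and the inactivating enzyme Hpgd. They were chosen by gene symbol and number 9 of the 32285 genes in the deposited matrices, and all 9 were present in each of the 3 libraries. Their levels were compared between libraries within fibroblasts, the Clic5-positive and Pi16-positive subsets of fibroblasts, endothelium, macrophages and neutrophils, each gated on a few marker genes that are not among the 9.

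The libraries are 10x Genomics droplet libraries of sorted live cells from the synovium and infrapatellar fat pad of mouse knees, with the genotype given as wt. Control mice were 2 months old. The other mice had destabilisation of the medial meniscus (DMM), a surgical model of post-traumatic osteoarthritis, at 2 months of age, and their tissue was taken 1 week or 2 months later, so the mice of the last group were also older than the controls. Tissue of 5 to 10 mice was combined for a library, each group is a single library, and the cells came from a 30 min digestion in collagenase (300 U/mL) that followed 30 min in 0.25% trypsin. Whether controls had a sham operation, and the sex of the mice, are not given here.

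Prostaglandins are lipid mediators made from arachidonic acid that phospholipases release from membranes. Cyclooxygenase 1 (Ptgs1, present in many resting cells) and cyclooxygenase 2 (Ptgs2, induced by cytokines and injury) convert it to a short-lived endoperoxide, which Ptges turns into prostaglandin E, Ptgis into prostacyclin and Ptgds into prostaglandin D. Prostaglandin E acts on receptors that include EP2 (Ptger2) and EP4 (Ptger4), prostacyclin acts on the IP receptor (Ptgir), and Hpgd oxidises prostaglandins to forms with little activity. In joints the pathway is known for its part in pain and inflammation, and the cyclooxygenases are the targets of non-steroidal anti-inflammatory drugs.

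Promoters are shown for Ptgs2 and Ptgs1, the alternative first enzymes, which had opposite orders in the fibroblast subsets described below, and for Hpgd, whose RNA lay mostly in macrophages. In the control library the order of Ptgs1 was not kept in the purer gates, also described below. Each line gives the 250 bases before the RefSeq start of the gene on its own strand, which is the plus strand in all 3 (RefSeq, build GRCm38.p6), at chr1:150099781-150100030, chr2:36230176-36230425 and chr8:56294302-56294551. Capitals mark matches to the C/EBP pattern TTNNGNAA in Ptgs2 and Hpgd and to the PU.1 pattern GAGGAAG in Ptgs1.
Ptgs2: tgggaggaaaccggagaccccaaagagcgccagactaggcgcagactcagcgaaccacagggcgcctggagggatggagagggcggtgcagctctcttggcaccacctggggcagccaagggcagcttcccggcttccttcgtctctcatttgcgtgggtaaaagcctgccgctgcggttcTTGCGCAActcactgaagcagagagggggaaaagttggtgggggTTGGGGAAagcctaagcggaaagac
Ptgs1: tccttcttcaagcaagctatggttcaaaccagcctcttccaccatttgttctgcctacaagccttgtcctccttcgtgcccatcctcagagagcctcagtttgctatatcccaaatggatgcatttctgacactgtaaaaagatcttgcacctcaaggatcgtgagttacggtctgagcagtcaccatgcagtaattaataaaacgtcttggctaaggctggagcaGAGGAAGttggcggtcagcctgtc
Hpgd: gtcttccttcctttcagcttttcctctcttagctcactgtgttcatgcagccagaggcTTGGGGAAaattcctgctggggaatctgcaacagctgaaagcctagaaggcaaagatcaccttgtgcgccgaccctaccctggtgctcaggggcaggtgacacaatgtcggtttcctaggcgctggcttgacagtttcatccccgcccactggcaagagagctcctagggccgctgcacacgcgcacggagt

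The Ptgs2 window held 2 C/EBP matches, which began 69 and 25 bases before the start, and the Hpgd window held 1, at 192 bases. The Ptgs1 window held 1 PU.1 match, at 24 bases. Both strands were searched, and of 32851 promoter windows of the same length 36.8% held a C/EBP match and 10.6% a PU.1 match. Windows were also searched for CANNTG (E-box), held by 66.2% of windows and present 2 times in each of these 3. A match is a description of the letters, and no binding was measured. RefSeq promoters were matched for 8 of the 9 genes, all but Ptgis.

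In the mouse annotation (GENCODE, GRCm38) Ptgs1 lies at chr2:36230426-36252272, Ptgs2 at chr1:150100031-150108227, Ptges at chr2:30889471-30929863, Ptgis at chr2:167191805-167240604 and Ptgds at chr2:25466709-25470046. The receptor genes lie at chr14:44988195-45003820 (Ptger2), chr15:5206661-5244187 (Ptger4) and chr7:16906490-16910905 (Ptgir), and Hpgd at chr8:56294585-56321043. The non-coding gene Ptgs2os starts 68 bases from the start of Ptgs2 and runs the other way. Exons of Ptgis, Ptger2 and Ptger4 overlap those of 1110018N20Rik, Gm17173 and Ttc33 on the opposite strand, and the use of strand in counting is not stated, so reads of these pairs may not be told apart.

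Cells were kept with 500 or more genes and no more than 10% mitochondrial counts, which left 8099, 12316 and 9782 barcodes in the control, 1-week and 2-month libraries, with medians of 10871, 12919.5 and 13543 unique molecular identifiers (UMIs, 1 per captured RNA molecule). Levels are CPM: the UMIs of a gene summed over the gated cells of a library, per 1000000 UMIs of all genes in those cells. They count 3' ends and are not divided by gene length. Brackets hold 95% intervals, exact Poisson for a level and exact conditional binomial for a ratio, and they cover counting error only. With 1 library a group, nothing could be tested against the spread between animals, and a ratio of at least 2-fold with 50 or more UMIs in both sums together is used below as a description. Values given in threes follow the order control, 1 week, 2 months.

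Fibroblasts (Pdgfra at least 1, no Ptprc or Cdh5) numbered 3781, 4748 and 5317, endothelial barcodes (Cdh5 at least 1, no Ptprc) 1270, 1784 and 1157, macrophage barcodes (C1qa at least 3) 1101, 1969 and 894 and neutrophil barcodes (Retnlg at least 2) 93, 442 and 1141. All 6 markers of its own type were detected in each of these gates. Fibroblast RNA was present in the other gates. The summed level of 6 fibroblast markers (Pdgfra, Col1a1, Col1a2, Col3a1, Dcn and Lum) was 26.9%, 29.6% and 23.1% of the fibroblast level in the endothelial gate, 13.7%, 16.4% and 16.3% in the macrophage gate and 32.3%, 39.6% and 51.8% in the neutrophil gate. Barcodes that met more than 1 gate numbered 84, 86 and 311, and those met by both the fibroblast and the neutrophil gate 9, 18 and 190.

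For this reason levels are also given from purer gates, added after the data were seen: endothelium with Pecam1 and no Pdgfra (922, 1342 and 894 cells), macrophages with Csf1r and neither Pdgfra nor Cdh5 (875, 1574 and 719), and neutrophils with Csf3r, 1% or more of UMIs from S100a8 and S100a9, no Pdgfra or Cdh5 and fewer than 3 C1qa (49, 218 and 578). The fibroblast markers then summed to 707, 2817 and 846 CPM in endothelium, 658, 2304 and 872 CPM in macrophages and 603, 8051 and 761 CPM in neutrophils, against 7475, 15981 and 6389 CPM, 3789, 8821 and 4496 CPM and 8956, 21335 and 14322 CPM in the gates above. The summed level of 5 lining fibroblast markers (Clic5, Prg4, Tspan15, Hbegf and Htra4) was 14123, 2830.1 and 11243 CPM in the first endothelial gate and 9882, 1272 and 6062 CPM in the first macrophage gate, and 3233, 426 and 1446 CPM and 3217, 333 and 1625 CPM in the purer ones, lowest at 1 week in each. Purer fibroblasts had fewer than 3 C1qa, 2 Retnlg and 3 Rgs5 UMIs. This kept 1371, 241 and 1227 of the 1650, 376 and 1786 Clic5-positive fibroblasts. Their lining markers summed to 71988, 55404 and 85446 CPM, against 80785, 69773 and 88714 CPM before. Cells with lining markers were thus also left out, and the part of this loss in the results of purer Clic5-positive cells was not tested. A further alternative kept the cells of each gate below its median share of immediate-early genes, which tissue digestion is known to induce.

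**Figure D1:**
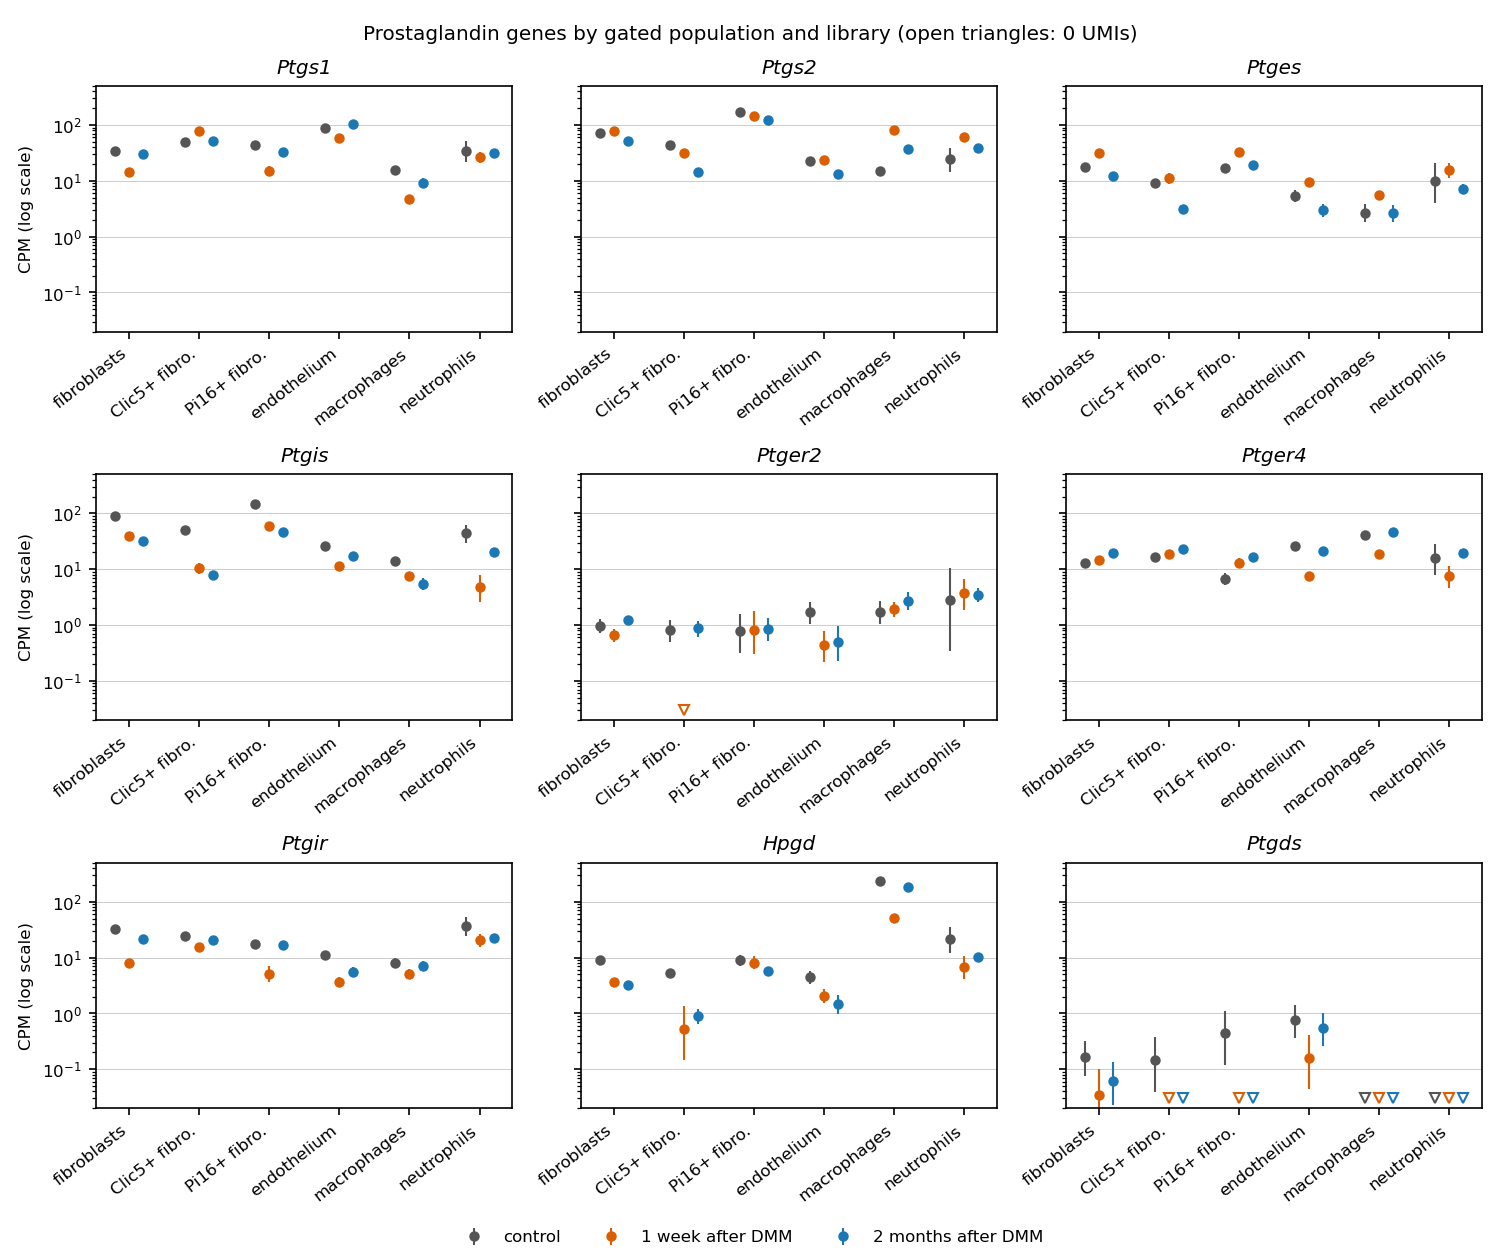
Level of each of the 9 genes (CPM) in the 6 gated populations of the control (gray), 1-week (orange) and 2-month (blue) libraries, on a log scale with 95% Poisson bars and open triangles at 0 UMIs. Of these 6 populations Hpgd is highest in macrophages (239.7, 51.7 and 182 CPM) and Ptgs2 in Pi16-positive fibroblasts (172, 147 and 121 CPM).

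The genes divided by cell population. Fibroblasts held most of the UMIs of Ptgs2 (81.9%, 55.7% and 73.3% of all UMIs of the gene in a library), of Ptges (84.3%, 71.3% and 83.1%) and of Ptgis (78.4%, 67.0% and 65.8%). Macrophages held most of the UMIs of Hpgd (83.6%, 66.2% and 81.6%). Ptgs1 was split between fibroblasts (47.6%, 37.6% and 52.5%) and endothelium (30.9%, 44.7% and 33.8%). Most UMIs of the enzymes that complete the synthesis of prostaglandin E and prostacyclin thus lay in the fibroblast gate. Most UMIs of the inactivating enzyme lay in the macrophage gate. Barcodes in no gate held 14.4%, 24.2% and 22.2% of the Ptgis UMIs and 7.51%, 18.4% and 7.46% of the Ptges UMIs. These shares also move with the number of cells in a gate. Fibroblasts were 46.7%, 38.6% and 54.4% of the cells. They held 54007158, 85401321 and 97612131 UMIs of all genes, out of 95152398, 174607108 and 155380425. At 1 week the macrophage level of Ptgs2 was 103.9% of the fibroblast level, so the 1-week share does not mark a higher level in fibroblasts than in macrophages. Levels within gates are given next.

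Ptgs1, cyclooxygenase 1, was highest in endothelium among the 6 gated populations of the control library, at 90.3 CPM [85.2 to 95.6], with 58.0 CPM [55.1 to 61.1] at 1 week and 106 CPM [101 to 111] at 2 months. The purer endothelial gate gave 107, 71.9 and 127 CPM, in the same order of libraries, and ratios to control of 0.669 [0.613 to 0.730] and 1.19 [1.09 to 1.29]. In endothelial cells below the median share of immediate-early genes the ratios were 0.415 and 0.868. Next of the 6 in the control library came Clic5-positive fibroblasts at 49.1 CPM [46.5 to 51.8] and Pi16-positive fibroblasts at 44.3 CPM [40.0 to 48.8], whose intervals overlap, then neutrophils at 34.3 CPM [22.0 to 51.1] (26.6 CPM and 31.3 CPM in the DMM libraries), and macrophages were lowest at 16.0 CPM [13.7 to 18.4]. At 1 week Clic5-positive fibroblasts, at 78.8 CPM, stood above endothelium in the first gates, but the purer gates gave 62.2 CPM [55.3 to 69.7] for Clic5-positive fibroblasts and 71.9 CPM [67.8 to 76.1] for endothelium, so that order was not kept. The purer Clic5-positive gate also had a lower sum of lining markers, as given above. In macrophages the level was 16.0, 4.65 and 9.17 CPM and the 1-week ratio 0.291 [0.228 to 0.371], or 0.229 [0.157 to 0.330] in the purer gate. The lining markers given above for both macrophage gates had the same order over the libraries as Ptgs1, and their part in this result was not tested.

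In all fibroblasts Ptgs1 stood at 33.6, 14.3 and 30.5 CPM, so the 1-week library alone was low. The ratio to control was 0.425 [0.395 to 0.457] at 1 week and 0.909 [0.857 to 0.964] at 2 months. The low 1-week level was found in the Pi16-positive subset but not in the Clic5-positive subset. In Clic5-positive fibroblasts (1650, 376 and 1786 cells), the gate of synovial lining cells, Ptgs1 was 49.1, 78.8 and 51.1 CPM, a 1-week ratio of 1.60 [1.45 to 1.77]. In Pi16-positive fibroblasts (665, 406 and 1376 cells), the gate of progenitor-type cells, it was 44.3, 15.2 and 33.5 CPM, a 1-week ratio of 0.344 [0.276 to 0.425]. The lining markers in this gate summed to 25132, 4188 and 27003 CPM, also lowest at 1 week. In the purer Pi16-positive gate they summed to 20599, 3211 and 19483 CPM, and the 1-week ratio of Ptgs1 was 0.349 [0.276 to 0.440]. The part of the lining markers in these Pi16-positive ratios was not tested.

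The mix of subsets moved with the Ptgs1 result. Cells with Clic5 and no Pi16 made up 37.3%, 7.41% and 28.1% of fibroblasts and held 63.1%, 45.8% and 63.8% of their Ptgs1 UMIs. Cells with neither gene made up 45.1%, 84.0% and 46.0%. With the subset levels of each library weighted to the control mix, Ptgs1 came to 33.6, 41.2 and 33.9 CPM, and the 1-week ratio to 1.23, the direction opposite to that in all fibroblasts. Within the subsets, Ptgs1 was higher at 1 week in Clic5-positive cells and lower in Pi16-positive cells and in cells with neither gene (12.6, 7.75 and 8.16 CPM). Summed lining markers moved the same way as the subsets, at 43281, 8839 and 45446 CPM in all fibroblasts. Leaving out cells that met any other gate gave a 1-week ratio of 0.604 in all fibroblasts, and higher marker minimums 0.522. Fewer lining cells in the joint and fewer captured cannot be told apart in these libraries.

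**Figure D2:**
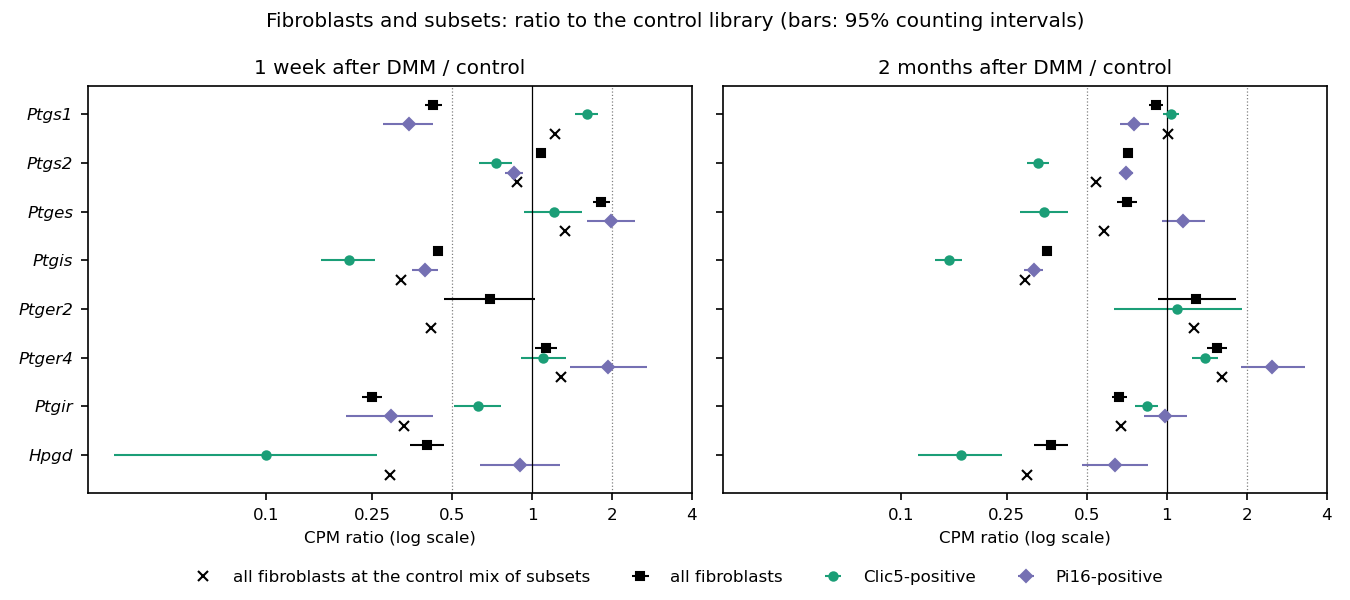
CPM ratio to the control library (log scale) of 8 genes in all fibroblasts and in Clic5-positive and Pi16-positive fibroblasts, at 1 week and 2 months, with 95% counting intervals, and in all fibroblasts weighted to the control mix of subsets (crosses). Ptgs1 at 1 week lies at 0.425 in all fibroblasts and at 1.23 at the control mix, and Ptgis lies below 0.5 in all 3 gates at both times.

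Ptgs2, cyclooxygenase 2, was 71.7, 77.3 and 51.3 CPM in all fibroblasts, with ratios of 1.08 [1.04 to 1.12] at 1 week and 0.716 [0.686 to 0.746] at 2 months, neither of them 2-fold. In fibroblasts below the median share of immediate-early genes the 1-week ratio was 1.74. Its levels were further apart between the fibroblast subsets. Pi16-positive cells stood at 172, 147 and 121 CPM and Clic5-positive cells at 43.5, 31.8 and 14.2 CPM, and of their ratios to control only that of Clic5-positive cells at 2 months, 0.327 [0.297 to 0.360], was past 2-fold. The 1-week ratios, 0.856 and 0.730, came to 1.32 and 1.40 in cells below the median share of immediate-early genes, in the other direction. The share of cells with a Ptgs2 UMI was 44.7%, 51.0% and 37.3% in Pi16-positive and 18%, 20.5% and 10.0% in Clic5-positive cells. After every cell was thinned to 2000 UMIs it was 20.1%, 21.0% and 15.5% and 6.67%, 4.52% and 2.24%, so Pi16-positive cells stayed above at equal depth in each library.

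Macrophages had 15.2 CPM [13.0 to 17.6] of Ptgs2 in the control library, 80.3 CPM [76.8 to 84.0] at 1 week and 36.9 CPM [33.5 to 40.5] at 2 months. Both DMM libraries were above the control, with ratios of 5.29 [4.53 to 6.22] and 2.43 [2.03 to 2.91]. In the purer gate the levels were 8.24, 83.0 and 29.7 CPM and the ratios were larger, 10.1 [7.90 to 13.1] and 3.61 [2.75 to 4.79]. Without Scrublet doublets they were 9.05 and 3.85. The share of macrophages with a Ptgs2 UMI was 7.90%, 25.1% and 10.6%. Thinned to 2000 UMIs per cell, with 81, 22 and 10 shallower cells left out, it was 2.35%, 9.50% and 3.73%, beside 2.45%, 2.54% and 1.58% in the endothelial gate, where the level of Ptgs2 followed the fibroblast markers as described next.

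Endothelium had 22.7, 23.3 and 13.0 CPM of Ptgs2, or 31.6%, 30.1% and 25.4% of the fibroblast level, close to the 26.9%, 29.6% and 23.1% found for the fibroblast markers. In the purer gate 2.75, 6.06 and 4.62 CPM were left, from 23, 99 and 56 UMIs. The 1-week ratio was 1.03 [0.890 to 1.18] in the gate above and 2.21 [1.39 to 3.64] in the purer one, and the 2-month ratio 0.573 [0.481 to 0.683] and 1.68 [1.02 to 2.86], on opposite sides of 1.

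In neutrophils Ptgs2 was 24.3 CPM [14.2 to 38.9] in the control library, from 17 UMIs, 60.6 CPM [52.0 to 70.2] at 1 week and 38.8 CPM [35.7 to 42.1] at 2 months, with ratios of 2.49 [1.51 to 4.38] and 1.60 [0.989 to 2.76]. The 2-month ratio was 2.59 with stricter gates, 2.81 with every cell weighted equally, 3.22 with exclusive gates and 3.63 after thinning. The purer gate gave 9.80, 45.1 and 55.1 CPM, from 2, 33 and 216 UMIs. Its control sample of 49 cells is too small for a ratio to be described there.

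Ptgs2os, the neighbour that runs the other way, was 4.07, 6.36 and 1.89 CPM in fibroblasts, with 12.9, 11.5 and 4.57 CPM in the Pi16-positive and 2.66, 1.59 and 0.524 CPM in the Clic5-positive subset, and 0.523, 2.58 and 0.917 CPM in macrophages. Like Ptgs2 it was higher in Pi16-positive than in Clic5-positive cells in each library, and in macrophages highest at 1 week. It was picked after its values were seen.

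Ptges, which makes prostaglandin E and is often induced together with Ptgs2, was 17.4, 31.8 and 12.3 CPM in fibroblasts. The 1-week library was highest, with a ratio of 1.82 [1.69 to 1.97], and the 2-month library lowest, at 0.707 [0.648 to 0.770] of control and 0.387 [0.362 to 0.415] of the 1-week level. In Pi16-positive cells Ptges was 16.7, 33.2 and 19.3 CPM, a 1-week ratio of 1.98 [1.61 to 2.45] and a 2-month ratio of 1.16 [0.959 to 1.40]. In Clic5-positive cells it was 9.21, 11.1 and 3.19 CPM, with ratios of 1.21 [0.931 to 1.55] and 0.346 [0.280 to 0.426], the latter 0.565 in cells below the median share of immediate-early genes. At 2 months the level was therefore under control in the lining gate, while the interval in the Pi16-positive gate includes 1. In purer Pi16-positive cells the 2-month ratio was 1.23 [1.02 to 1.49], an interval that leaves out 1.

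At 2000 UMIs per cell, Ptges was detected in 3.48% of control fibroblasts with a Ptgs2 UMI and in 3.53% of those without. At 1 week the shares were 5.08% and 6.20%. At 2 months they were 6.11% [3.99 to 8.89] and 2.51% [2.09 to 2.99], the 1 library where the intervals do not overlap. Pi16-positive cells had a higher level of both genes than Clic5-positive cells in each library, not in that library alone.

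Outside fibroblasts Ptges was low. Macrophages had 2.70, 5.62 and 2.67 CPM, a 1-week ratio of 2.08 [1.40 to 3.18]. Those levels are 15.5%, 17.7% and 21.6% of the fibroblast level, beside 13.7%, 16.4% and 16.3% for the fibroblast markers, and in the purer gate they were 1.33, 1.48 and 1.51 CPM with a ratio of 1.11 [0.527 to 2.50]. Endothelium had 5.37, 9.50 and 2.99 CPM in the first gate and 1.19, 2.02 and 0.742 CPM in the purer gate, and neutrophils 10.0, 15.7 and 7.10 CPM and 4.90, 6.83 and 3.06 CPM.

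Ptgis, prostacyclin synthase, was lower after DMM in every fibroblast gate. All fibroblasts had 91.1 CPM [88.5 to 93.6] in the control library, 40.2 CPM [38.9 to 41.6] at 1 week and 32.3 CPM [31.2 to 33.4] at 2 months, ratios of 0.441 [0.422 to 0.461] and 0.354 [0.339 to 0.371]. Pi16-positive cells had 149.9, 59.4 and 47.3 CPM, and Clic5-positive cells 51.1, 10.5 and 7.73 CPM. The ratios of the latter, 0.205 [0.161 to 0.257] and 0.151 [0.134 to 0.170], were lower than those of Pi16-positive cells, 0.396 [0.355 to 0.442] and 0.315 [0.291 to 0.342], and than those of cells with neither gene, 0.345 and 0.418. After thinning before gating, the 1-week ratio of Pi16-positive cells was 0.764, no longer 2-fold. With exclusive gates the 1-week ratio was 0.285 in all fibroblasts and 0.0892 in Clic5-positive cells. At the control mix of subsets all fibroblasts came to 91.1, 29.2 and 26.7 CPM. The share of fibroblasts with a Ptgis UMI was 40.7%, 26.1% and 18.5%, and 15.0%, 6.12% and 6.13% at 2000 UMIs per cell.

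Endothelial cells are a known source of prostacyclin, and in their gate Ptgis was 25.8, 11.4 and 17.6 CPM. In the purer gate it was 9.07 CPM [7.15 to 11.4], 3.92 CPM [3.02 to 5.01] and 16.0 CPM [13.8 to 18.4], so the 2-month library was highest there. The 2-month ratio was 0.683 [0.584 to 0.799] in the first gate and 1.76 [1.35 to 2.33] in the purer one, on opposite sides of 1, while the 1-week ratios were close, at 0.443 and 0.432, with 0.252 in exclusive gates. Macrophages had 14.0, 7.56 and 5.42 CPM, and 4.24, 3.67 and 2.32 CPM in the purer gate. Neutrophils had 31, 14 and 306 UMIs in the first gate but 0, 1 and 5 in the purer one, so nearly all Ptgis of that gate lay in barcodes that the purer gate left out.

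A gate meant for mural cells, the pericytes and smooth muscle of vessels (Rgs5 at least 3, no Ptprc, Cdh5 or Pdgfra), held 253, 578 and 247 barcodes and not mural cells alone. The 5 lining fibroblast markers summed to 62186, 6475 and 17825 CPM there, beside 43281, 8839 and 45446 CPM in all fibroblasts, and the mural markers to 3267, 8275 and 7416 CPM. Ptgs1 was 59.5, 11.3 and 19.1 CPM, with the order over the libraries control, 2 months, 1 week that the lining markers had. Ptgs2 (1.50, 10.4 and 3.50 CPM) and Ptges (2.25, 10.7 and 2.54 CPM) were highest at 1 week, as were the 6 fibroblast markers, at 2345, 8669 and 5657 CPM. Ptgis was 1.50, 1.43 and 26.7 CPM from 4, 10 and 84 UMIs, and 1.58%, 1.21% and 4.86% of the cells had a UMI. The part of these markers in the levels was not tested, no purer version of this gate was made, and no ratio is given for it.

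Ptgds, the lipocalin-type prostaglandin D synthase, was nearly absent, with 22, 11 and 19 UMIs in all cells of the libraries, of which 9, 3 and 6 lay in fibroblasts and 10, 4 and 10 in endothelium. Macrophages had none, which allows a level of up to 0.262, 0.127 and 0.250 CPM, and neutrophils had none. Levels this low give no ratio.

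Ptger4, the EP4 receptor, which raises cyclic AMP in response to prostaglandin E, was found in every gate. Macrophages had 40.5, 19.0 and 46.8 CPM and endothelium 25.6, 7.65 and 21.3 CPM, both lowest at 1 week. The 1-week ratios were 0.469 [0.411 to 0.535] and 0.299 [0.249 to 0.358], and the 2-month ratios 1.15 [1.02 to 1.31] and 0.832 [0.717 to 0.967]. In the purer endothelial gate the levels were 30.9, 4.78 and 19.1 CPM, a 1-week ratio of 0.155 [0.118 to 0.200], and in the purer macrophage gate 46.0, 19.8 and 49.8 CPM, a 1-week ratio of 0.431 [0.371 to 0.500]. Both 1-week ratios were lower in the purer gates, though that of the first macrophage gate lay near 2-fold and was 0.503 with median-of-ratios scaling, 0.510 with every cell weighted equally and 0.514 after thinning. The 2-month macrophage ratio was 0.807 in cells below the median share of immediate-early genes. Neutrophils had 15.7, 7.49 and 19.7 CPM.

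Fibroblasts did not show a low 1-week level of Ptger4. All fibroblasts had 12.9, 14.5 and 19.9 CPM, a 2-month ratio of 1.55 [1.42 to 1.69]. Pi16-positive cells had 6.72 CPM [5.14 to 8.63], 13.0 CPM [10.5 to 15.9] and 16.8 CPM [15.2 to 18.5], ratios of 1.94 [1.39 to 2.72] and 2.50 [1.90 to 3.33], the 2-month one being past 2-fold. That ratio was 1.91 with every cell weighted equally and 5.15 with stricter gates. Clic5-positive cells had 16.6, 18.4 and 23.2 CPM.

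Ptgir, the prostacyclin receptor, was lowest at 1 week in all fibroblasts and in endothelium. All fibroblasts had 32.2, 8.06 and 21.3 CPM, ratios of 0.250 [0.229 to 0.273] and 0.663 [0.622 to 0.707]. Cells with neither Clic5 nor Pi16 had 45.4, 7.58 and 24.5 CPM, a 1-week ratio of 0.167 [0.150 to 0.186]. Pi16-positive cells had 17.4, 5.11 and 17.2 CPM, a 1-week ratio of 0.294 [0.200 to 0.423], and Clic5-positive cells 24.5, 15.3 and 20.7 CPM, a ratio of 0.625 [0.509 to 0.762], or 0.380 [0.278 to 0.509] in purer Clic5-positive cells, past 2-fold. At the control mix of subsets all fibroblasts came to 32.2, 10.6 and 21.6 CPM, again lowest at 1 week. That mix is set by Clic5 and Pi16 alone, and the mix within the cells with neither gene was not held constant.

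Endothelium had 11.1, 3.65 and 5.48 CPM of Ptgir in the first gate and 2.98, 0.674 and 2.31 CPM in the purer gate, and the 2-month ratio was 0.493 [0.378 to 0.641] in one and 0.774 [0.435 to 1.38] in the other, with 0.733 in stricter gates. The gate on Rgs5 had 32.6, 40.8 and 39.4 CPM. Macrophages had 8.02, 5.20 and 7.09 CPM in the first gate, a 1-week ratio of 0.648 [0.490 to 0.858], and in the purer gate 4.32 CPM at 1 week and 4.41 CPM at 2 months, ratios of 1.08 [0.707 to 1.68] and 1.10 [0.674 to 1.82] to control, so the low 1-week level was not kept there. Neutrophils had 37.2, 20.4 and 22.2 CPM, and 34.3, 13.7 and 25.7 CPM in the purer gate from 7, 10 and 101 UMIs. Ptgir was therefore detected in neutrophil barcodes without Pdgfra counts, unlike most of the Ptgis of that gate.

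Ptger2, the EP2 receptor, was scarce, with 150, 186 and 266 UMIs in all cells. Fibroblasts had 0.963, 0.667 and 1.24 CPM, with ratios to control of 0.693 [0.468 to 1.03] and 1.29 [0.923 to 1.82], and macrophages 1.74, 1.90 and 2.75 CPM, with 1.09 [0.631 to 1.95] and 1.58 [0.879 to 2.90]. All 4 intervals include 1. At the control mix of subsets the 1-week fibroblast ratio was 0.415. In Clic5-positive cells the counts were 22, 0 and 40 UMIs, in Pi16-positive cells 7, 6 and 20, in endothelium 22, 11 and 9 and in neutrophils 2, 11 and 51. The 0 among them, from 376 cells, allows a level of up to 0.397 CPM.

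Hpgd, which inactivates prostaglandin E, was highest in macrophages, at 239.7 CPM [231 to 249] in the control library, 51.7 CPM [48.8 to 54.7] at 1 week and 182 CPM [175 to 190.2] at 2 months. The 1-week library was far below both others, with a ratio of 0.216 [0.201 to 0.231] to control, and the 2-month level was 0.761 [0.719 to 0.805] of control and 3.53 [3.29 to 3.79] times the 1-week level. The purer gate gave 279, 58.8 and 214 CPM and a 1-week ratio of 0.210 [0.195 to 0.227]. The share of macrophages with a Hpgd UMI was 66.7%, 24.3% and 61.9%. At 2000 UMIs per cell it was 32.8%, 10.2% and 28.3%, beside 1.72%, 0.676% and 1.03% in fibroblasts and 0.761%, 0.169% and 0.263% in endothelium. The summed level of 6 macrophage markers in the gate was 16441, 10844 and 13334 CPM, also lowest at 1 week, and its part in the result was not tested.

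Hpgd and Ptgs2 stood in opposite order across the libraries in macrophages: Hpgd was lowest and Ptgs2 highest at 1 week, with the 2-month library between. Detection in the same cells showed no clear difference. At 2000 UMIs per cell, 33.3% [15.6 to 55.3] of the 24 control macrophages with Ptgs2 had Hpgd, against 32.8% of the 996 without. At 1 week the shares were 7.57% [4.20 to 12.4] of 185 and 10.4% [9.05 to 12.0] of 1762, and at 2 months 27.3% of 33 and 28.3% of 851.

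In fibroblasts Hpgd was 8.94, 3.59 and 3.28 CPM, with ratios of 0.402 [0.347 to 0.465] and 0.367 [0.317 to 0.423], the former 0.549 where cells that met any other gate were left out and the latter 0.227 in cells below the median share of immediate-early genes. Clic5-positive cells had 5.32, 0.529 and 0.895 CPM from 146, 4 and 41 UMIs, with ratios of 0.0995 [0.0268 to 0.260] and 0.168 [0.116 to 0.239]. Pi16-positive cells had 9.03, 8.16 and 5.76 CPM, with ratios of 0.904 [0.635 to 1.28] and 0.638 [0.481 to 0.850]. The 1-week ratio there was 2.29 with stricter gates, in the other direction. Macrophage markers in fibroblasts summed to 143, 58.2 and 42.9 CPM, also highest in the control library. In the purer fibroblasts, where these markers summed to 59.4, 41.7 and 24.9 CPM, Hpgd was 8.56, 3.42 and 3.52 CPM, with ratios of 0.400 [0.342 to 0.467] and 0.411 [0.352 to 0.481].

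Endothelium had 4.45, 2.08 and 1.49 CPM of Hpgd, and in the purer gate 10, 14 and 16 UMIs. In neutrophils it was 21.5, 6.81 and 10.3 CPM, a 2-month ratio of 0.479 [0.282 to 0.877], and in the purer gate 0, 1 and 14 UMIs. With higher marker minimums in the gates, the 2-month ratio in neutrophils was 3.76, in the other direction, so no direction is given for Hpgd in neutrophils.

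**Figure D3:**
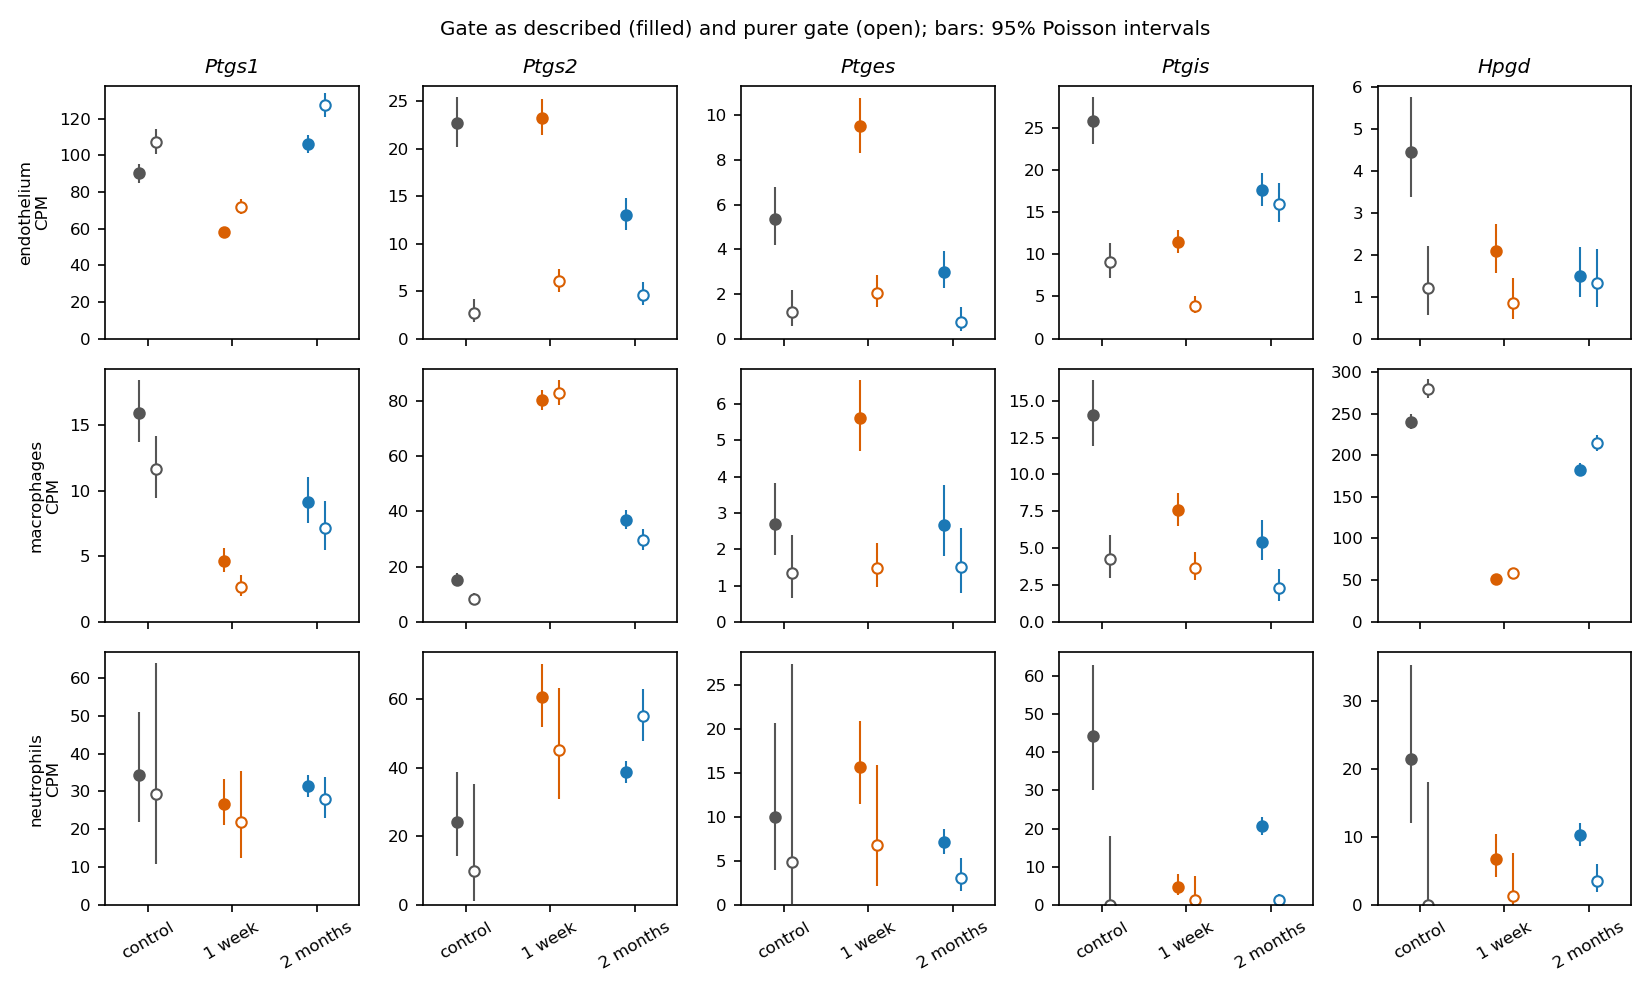
Level (CPM) of 5 genes in endothelium, macrophages and neutrophils, from the gates first described (filled) and the purer gates (open), on linear axes from 0 with 95% Poisson bars. Hpgd in macrophages and Ptgs1 in endothelium are somewhat higher in the purer gates, whereas Ptges in macrophages at 1 week is 5.62 CPM in one and 1.48 CPM in the other.

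Of the 9 genes, 8 had 50 or more UMIs in both fibroblast sums together, all but Ptgds. At 1 week 4 of the 8 were at least 2-fold lower than in the control library (Ptgs1, Ptgis, Ptgir and Hpgd) and none was 2-fold higher, beside 22.3% of the 14582 genes counted in either direction and 10.6% that were lower. At 2 months 2 of 8 were lower (Ptgis and Hpgd), beside 9.6% in either direction and 4.15% lower. Between the DMM libraries, Ptgs1 (2.14) and Ptgir (2.65) were higher and Ptges (0.387) lower at 2 months than at 1 week, beside 17.2%. These shares describe the libraries, and the 2 DMM comparisons share the control.

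In the Clic5-positive gate 2 of 7 counted members were lower at 1 week (Ptgis and Hpgd), beside 14.1% of all genes in either direction, and 4 of 8 at 2 months (Ptgs2, Ptges, Ptgis and Hpgd), beside 10.6%. In the Pi16-positive gate 3 of 7 were lower at 1 week (Ptgs1, Ptgis and Ptgir), beside 15.1%. At 2 months Ptgis was lower and Ptger4 higher there, 2 of 7, beside 7.2%. Ptgis was the 1 member past 2-fold in all 4 of these comparisons, though not at 1 week in the Pi16-positive gate after thinning (0.764).

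In endothelium 4 of 7 counted members were lower at 1 week (Ptgis, Ptger4, Ptgir and Hpgd), beside 16.1% of all genes, and 2 of 7 at 2 months (Ptgir and Hpgd), beside 6.55%. In the purer gate the 1-week ratio of Hpgd was 0.718 [0.297 to 1.81], from 14 and 10 UMIs, and at 2 months no counted member was past 2-fold. In macrophages 5 of 8 were 2-fold apart at 1 week, with Ptgs2 and Ptges higher and Ptgs1, Ptger4 and Hpgd lower, beside 18.6%, and 2 of 8 at 2 months, with Ptgs2 higher and Ptgis lower, beside 7.89%. The purer macrophage gate kept Ptgs2 at both times, but not Ptges at 1 week (1.11 [0.527 to 2.50]) or Ptgis at 2 months (0.548). In neutrophils 1 of 4 was higher at 1 week (Ptgs2), beside 14.4%, and 2 of 8 were under 0.5 of control at 2 months in the first gate (Ptgis and Hpgd), beside 16.5%. Neither is described as lower in neutrophils, since the purer gate held 0, 1 and 5 UMIs of Ptgis and 0, 1 and 14 of Hpgd and stricter gates turned the direction of Hpgd.

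The subsets were also compared within each library, leaving out cells with both Clic5 and Pi16. Pi16-only cells had the higher level of Ptgs2, Ptgis, Ptges and Hpgd in all 3 libraries, and Clic5-only cells the higher level of Ptgs1, Ptger4 and Ptgir. For Ptgs1 in the control library this order was not kept in the purer fibroblasts, where cells with both genes were not left out. Clic5-positive cells had 37.0 CPM [34.5 to 39.6] there and Pi16-positive cells 39.8 CPM [35.7 to 44.3], with overlapping intervals. The Pi16-to-Clic5 ratio of Ptgs2 was 6.83 [6.20 to 7.53] in the control library, 4.86 [4.21 to 5.64] at 1 week and 21.6 [19.1 to 24.6] at 2 months. It was widest at 2 months, where the level in Clic5-only cells was 7.18 CPM, against 29.5 CPM in the control library, and the level in Pi16-only cells 155 CPM, against 202 CPM.

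Ptges had Pi16-to-Clic5 ratios of 2.29, 3.12 and 9.57, Ptgis 4.29, 6.16 and 10.0, and Hpgd 2.13 [1.53 to 2.93], 15.5 [5.73 to 58.6] and 15.1 [9.11 to 26.4], the last from 122, 4 and 18 UMIs in Clic5-only cells. For each of these 3 genes the gap was wider in both DMM libraries than in the control. The intervals of Ptges, 1.79 to 2.91 in the control library and 2.41 to 4.08 at 1 week, overlap. The genes higher in Clic5-only cells had no common order over the libraries: the Clic5-to-Pi16 ratio was 1.29 [1.11 to 1.51], 7.39 [5.78 to 9.59] and 2.27 [2.02 to 2.55] for Ptgs1, 3.63 [2.44 to 5.62], 1.50 [1.12 to 2.02] and 1.74 [1.49 to 2.03] for Ptger4 and 1.39 [1.12 to 1.74], 3.24 [2.18 to 4.93] and 1.30 [1.12 to 1.50] for Ptgir. At least 2-fold apart were 5 of 7 counted members in the control library, 6 of 7 at 1 week and 5 of 7 at 2 months, beside 11.2%, 10.7% and 17.9% of all genes.

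**Figure D4:**
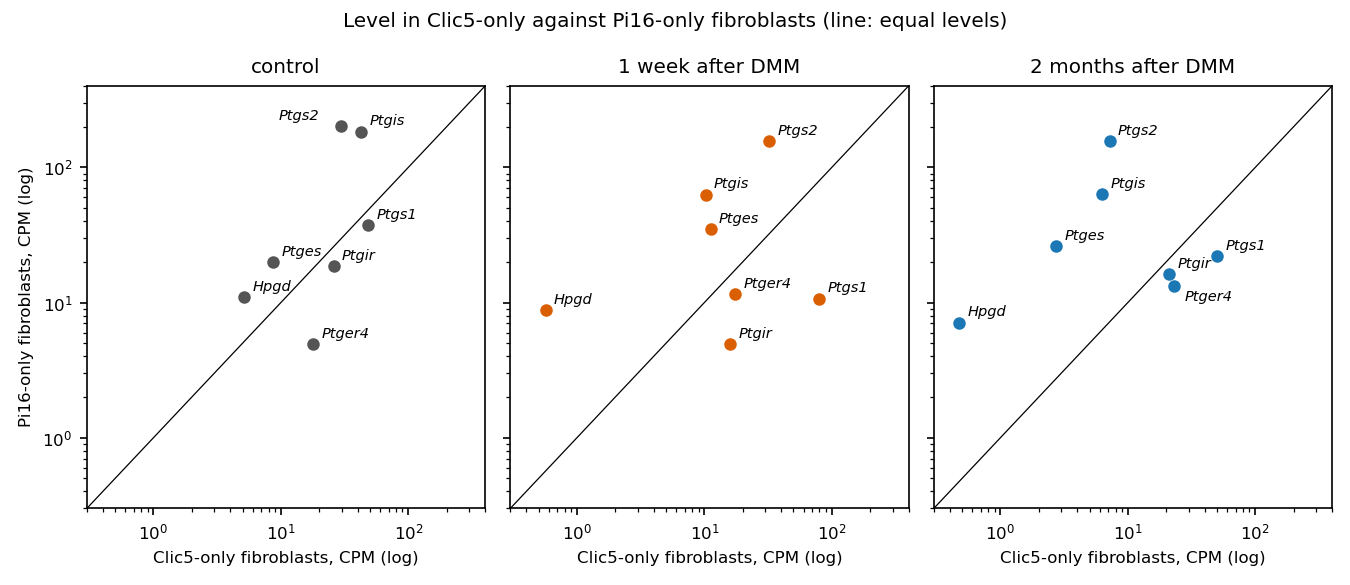
Level in Clic5-only (x axis) and Pi16-only (y axis) fibroblasts (CPM, log scales) in each library, 1 point per gene, with a line at equal levels. Ptgs2, Ptgis, Ptges and Hpgd lie on the Pi16 side of the line and Ptgs1, Ptger4 and Ptgir on the Clic5 side in all 3 libraries.

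Other genes of the pathway were taken from a list of 38 genes found in the files, none of them among the 9. In fibroblasts at 1 week 32 could be counted, of which 12 were at least 2-fold lower and 1 higher, beside 22.3% of all genes in either direction and 10.6% lower. The median log2 ratio was -0.65 beside 0.02 over all genes. At 2 months 6 of 32 were lower and 2 higher, beside 9.6% in either direction, with medians of -0.18 and 0.02.

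Among enzymes that release arachidonic acid or break down related lipids, the secreted phospholipase Pla2g5 was 5.07, 0.141 and 0.502 CPM in fibroblasts, ratios of 0.0277 [0.0141 to 0.0492] and 0.0989 [0.0715 to 0.134]. Mgll, monoacylglycerol lipase, was 67.4, 10.2 and 41.6 CPM, a 1-week ratio of 0.151 [0.140 to 0.163]. The fatty acid amide hydrolase Faah had a 1-week ratio of 0.156 and Pla2g2e of 0.346. Pla2g2d was the 1 gene of the list that was higher at 1 week, at 0.481, 2.60 and 1.48 CPM.

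Of the other synthases, Tbxas1, thromboxane synthase, had a 1-week ratio of 0.182 in fibroblasts, and Hpgds, the other prostaglandin D synthase, 0.308 at 1 week and 0.416 at 2 months. The EP3 receptor gene Ptger3 was 16.7, 4.77 and 29.3 CPM, a 1-week ratio of 0.285 [0.253 to 0.321]. Ptgfr, the prostaglandin F receptor, was 11.4, 22.9 and 23.8 CPM, a 2-month ratio of 2.08 [1.90 to 2.28], and the thromboxane receptor gene Tbxa2r had 0.248 at 2 months. The transporter Slco2a1, which takes up prostaglandins, was 28.4, 6.64 and 14.8 CPM, a 1-week ratio of 0.234 [0.212 to 0.258], and the carbonyl reductase Cbr3 had 0.398. In the leukotriene branch, Ltc4s, leukotriene C synthase, had ratios of 0.0985 and 0.234, Alox5, the lipoxygenase that starts the branch, 0.229 and 0.410, Alox5ap 0.433 at 2 months and the receptor gene Cysltr1 0.177 at 1 week. Several of these genes were far higher in macrophages of the control library than in its fibroblasts: Ltc4s was 555 CPM against 5.35 CPM, Alox5 103 CPM against 1.07 CPM, Alox5ap 715 CPM against 8.26 CPM, Hpgds 188 CPM against 2.24 CPM and Tbxas1 121 CPM against 8.09 CPM. The 6 macrophage markers in the fibroblast gate summed to 143, 58.2 and 42.9 CPM, also lower in both DMM libraries, and their part in these fibroblast ratios was not tested.

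In macrophages Ltc4s was 555, 45.1 and 353 CPM, a 1-week ratio of 0.0813 [0.0761 to 0.0867], and Alox5 103, 24.9 and 130.2 CPM, a 1-week ratio of 0.243 [0.219 to 0.268]. Both were lowest at 1 week, as Hpgd was. Ltb4r1, a leukotriene B receptor, was 3.92, 12.1 and 13.3 CPM, with ratios of 3.08 [2.24 to 4.32] and 3.40 [2.43 to 4.84]. Of 28 genes counted at 1 week 7 were lower and 3 higher, beside 18.6% of all genes in either direction, with a median log2 ratio of -0.24 beside -0.06. The others were Pla2g2d (0.151), Pla2g2e (0.311), Mgll (0.231), Prxl2b (0.452) and Ptger3 (0.205), which were lower, and Akr1b8 (2.18) and Ptgfr (3.13), which were higher. At 2 months 1 of 27 was lower, Mgll (0.365), and 4 higher: Ltb4r1, Pla2g2d (2.37), Ptger1 (2.01) and Ptgfrn (2.34). Of all genes 7.89% were 2-fold apart there.

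In endothelium Slco2a1 was 127, 269.9 and 369 CPM, with ratios of 2.13 [2.02 to 2.25] and 2.91 [2.76 to 3.07], the direction opposite to that in fibroblasts, and this difference was not tested. Akr1b8, an aldo-keto reductase, was 11.7, 61.7 and 25.3 CPM, and Mgll 433, 117 and 281 CPM, a 1-week ratio of 0.271 [0.259 to 0.283]. At 1 week 4 of 27 genes were higher, which besides Slco2a1 and Akr1b8 (5.26) were Pla2g4a (2.05) and Ptgfr (2.80). Of the 7 lower genes the others were Pla2g2e (0.465), Tbxas1 (0.207), Ptger3 (0.213), Alox5ap (0.386), Alox12 (0.284) and Cysltr1 (0.426). At 2 months 4 of 26 were higher, with Akr1b8 (2.16), Ptgfr (2.32) and the transporter Abcc4 (2.00) beside Slco2a1, and 2 lower, Alox5ap (0.401) and Alox12 (0.464). Of all genes 16.1% were 2-fold apart in either direction at 1 week and 6.55% at 2 months. The macrophage markers in the endothelial gate summed to 181, 67.5 and 76.6 CPM, also lower in both DMM libraries. Their part in the endothelial ratios of Alox5ap and Tbxas1, genes with high levels in control macrophages, was not tested.

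In the first neutrophil gate 2 of 14 genes were higher at 1 week, Pla2g4a (2.18) and Akr1b8 (3.52), and 2 lower, Mgll (0.232) and Ltc4s (0.0913). At 2 months 2 of 26 were higher, Akr1b8 (2.64) and Ptgfr (3.88), and 2 lower, Ltc4s (0.219) and Cysltr1 (0.480). Of all genes 14.4% and 16.5% were 2-fold apart in either direction, so the 4 of 26 at 2 months lie near the share of all genes. The macrophage markers in this gate summed to 1638, 897 and 728 CPM, lower in both DMM libraries. The fibroblast markers were 32.3%, 39.6% and 51.8% of the fibroblast level, higher in both DMM libraries. Their part in these ratios, including those of Ltc4s and Ptgfr, was not tested. No purer-gate values are given for these genes, so the ratios describe the gate and not neutrophils alone.

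**Figure D5:**
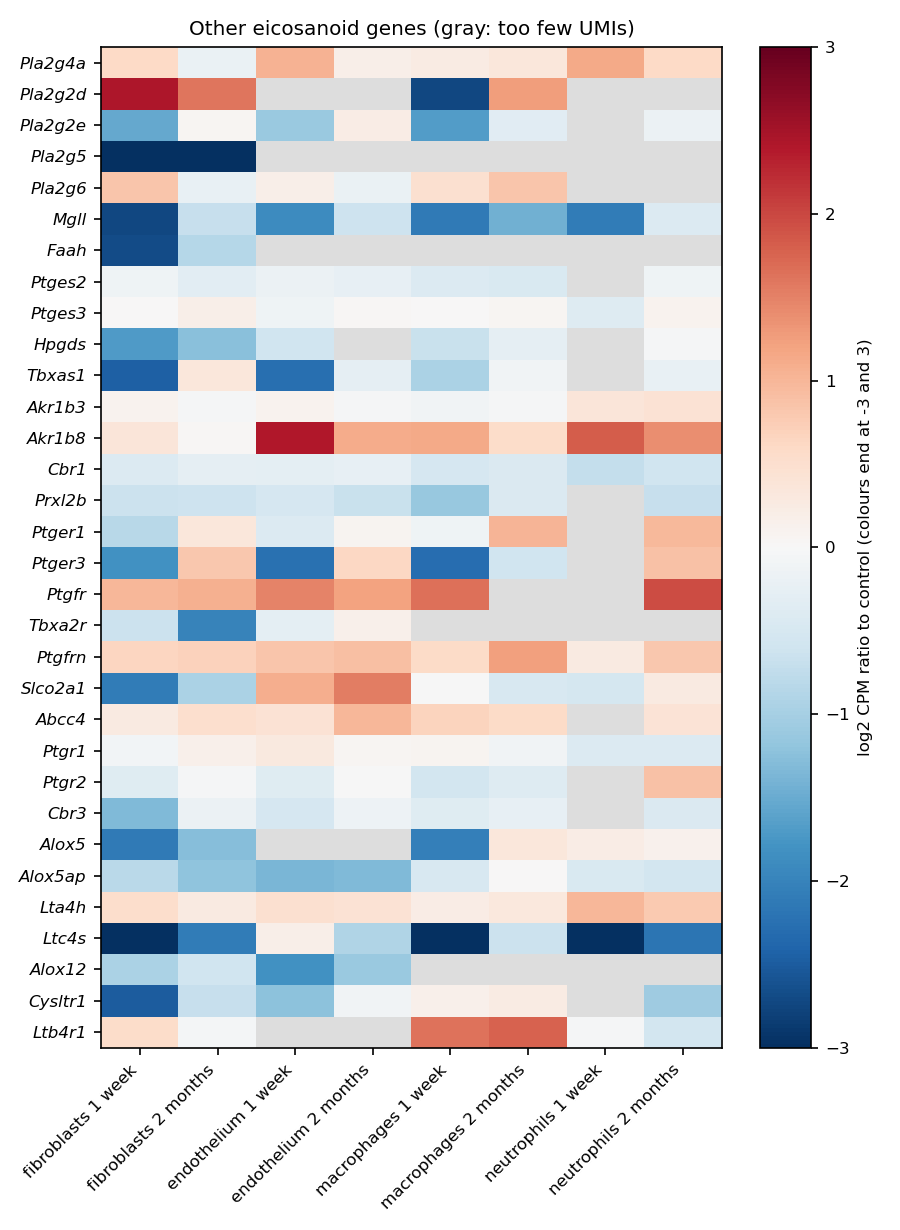
Log2 CPM ratio to the control library of the other eicosanoid genes in 4 populations at 1 week and 2 months, with higher in red, lower in blue and too few UMIs in gray. Mgll at 1 week lies at 0.151, 0.271, 0.231 and 0.232 of control in fibroblasts, endothelium, macrophages and neutrophils, and Slco2a1 is lower in fibroblasts and higher in endothelium.

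The 3 genes most like each member were found by Pearson correlation of log2(CPM + 1) over 18 points, 6 populations in each of 3 libraries, among 14379 genes with 200 or more UMIs. Points of a library share its depth and handling, so r is a description. Ptgs2 was nearest to Arhgap24 (0.890), Ptgs2os (0.881) and Mmp27 (0.869), and Ptgs1 to Filip1 (0.892), Calcrl (0.889) and Limch1 (0.865). Ptges was nearest to Armh4 (0.956), Fzd2 (0.954) and Smoc2 (0.953), and Ptgis to Gm16118 (0.956), Zc2hc1c (0.941) and Angpt1 (0.937). The receptors were nearest to Ip6k3 (0.854), Pltp (0.853) and Prune2 (0.831) for Ptger4, Dstn (0.860), Fam129a (0.849) and Aff2 (0.842) for Ptgir and Nt5c2 (0.886), Akna (0.883) and Sun2 (0.868) for Ptger2. Hpgd was nearest to Camkk2 (0.954), Slc8b1 (0.946) and Irf4 (0.940), and Ptgds had too few UMIs.

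Other measures moved with the libraries. The summed level of 17 immediate-early and heat-shock genes, which tissue digestion is known to induce, was 14795, 7924 and 10275 CPM in fibroblasts, 20379.6, 9269 and 16074 CPM in endothelium and 17393, 6490.5 and 12478 CPM in macrophages, lowest at 1 week in each. Ptgs2 is itself known as an immediate-early gene. In the macrophages of each library with less than the median share of these genes, the ratio of Ptgs2 was 4.55 at 1 week and that of Hpgd 0.199. Chondrocyte markers, 4 genes, summed to 0.963, 393 and 32.9 CPM in fibroblasts, and neutrophil markers to 86.0, 736 and 4475 CPM in macrophages. The part of these markers in the results was not tested.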

How the data were processed

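Whole-number UMI counts per gene and barcode were deposited for each library, as 10x matrices made with Cell Ranger, per the file headers (versions 5.0.0 and 5.0.1) and per the submitters' processing notes (version 6.0.1, build mm10); the difference between these is not explained in the labels. The libraries held 9003, 13986 and 10799 barcodes, and the totals after filtering were 95152398, 174607108 and 155380425 UMIs for control, 1 week and 2 months. Median mitochondrial shares were 1.79%, 3.51% and 3.41%. Libraries shared 26, 21 and 30 barcodes pairwise.

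From these counts, UMIs were summed over gated cells with Python 3.11.15, numpy 2.4.6, scipy 1.17.1 and pandas 2.3.3. Differences were described and not tested, because each group is 1 library. A ratio counted as 2-fold needed 50 UMIs in both sums together and 50 cells in both libraries, and a sum of 0 was read as at most 3 UMIs. Doublets were left in; Scrublet (scanpy 1.11.5) called 313, 507 and 460, and results without them are among the alternatives. Calculations were tested on simulated data. The 9 genes, the other lists and the gates were chosen with earlier results of these data known. All 9 genes are named in every gate; other pathway genes are named where at least 2-fold apart in fibroblasts, endothelium, macrophages or neutrophils, and 3 genes of like pattern for each member. The tried alternatives were doublet removal, stricter cell filters, stricter and exclusive gates, thinning to 2000 UMIs, equal cell weights, median-of-ratios scaling, a lower UMI minimum and the control mix of fibroblast subsets. Purer gates and the cells below the median share of immediate-early genes were added after seeing the data.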

Additional observations from a re-analysis of the deposited data

Results flagged for a closer look

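Over the 6 populations shown in the plot of levels, 3 genes had a ratio to control at least 1.50-fold above 1 in one population and as far below 1 in another, with counting intervals that leave out 1, and the difference was not tested because each group is 1 library. The 1-week ratio of Ptger4 was 1.94 [1.39 to 2.72] in Pi16-positive fibroblasts and 0.299 [0.249 to 0.358] in endothelium, so the ratios were 6.48-fold apart. The 1-week ratio of Ptgs1 was 1.60 [1.45 to 1.77] in Clic5-positive fibroblasts and 0.291 [0.228 to 0.371] in macrophages, 5.51-fold apart. The 2-month ratio of Ptgs2 was 2.43 [2.03 to 2.91] in macrophages and 0.327 [0.297 to 0.360] in Clic5-positive fibroblasts, 7.42-fold apart.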

How the results depend on the processing

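Of 49 member ratios past 2-fold between libraries, those still past it were 46 of 49 without Scrublet doublets, 47 of 49 with stricter cell filters, 38 of 44 with stricter gates, 39 of 48 with exclusive gates, 15 of 20 after thinning before gating, 33 of 37 with purer gates, 40 of 43 in cells below the median share of immediate-early genes, 40 of 49 with equal cell weights, 48 of 49 with median-of-ratios scaling and 7 of 9 at the control mix, where the second number counts those with enough UMIs and cells. Among these ratios the direction turned in 3 cases: Ptgs1 in all fibroblasts at the control mix (1.23 at 1 week, 0.824 for 2 months against 1 week) and Hpgd in neutrophils at 2 months with stricter gates (3.76). Members at least 2-fold apart from control in fibroblasts at 1 week were 2 with exclusive gates instead of 4. Thinning, which leaves fewer UMIs to count, gave 1 instead of 4 in endothelium at 1 week and 0 instead of 2 at 2 months, 2 instead of 5 and 1 instead of 2 in macrophages, and 0 instead of 1 and 1 instead of 2 in neutrophils. In endothelium at 2 months the count of 2 was 0 with stricter or purer gates and 1 with equal cell weights, in macrophages at 2 months 1 with purer gates, and in neutrophils at 2 months 1 without doublets; the cause was not tested. Ptges in macrophages at 1 week lay between 1.35 and 2.23 under 7 alternatives, and the purer gate, with 25 and 11 UMIs and so too few to be counted, gave 1.11 [0.527 to 2.50]. Median-of-ratios scaling shifted all log2 ratios by -0.12 for macrophages (2 months against 1 week) and -0.15 for neutrophils (2 months against control). No paired analysis was possible because each group is 1 library with no shared replicate.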

Other observations

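T cells (Cd3e and Ptprc at least 1, under 3 C1qa) numbered 2, 109 and 16 barcodes. The 1-week T cells held 20 UMIs of Ptger4, 31.7 CPM [19.4 to 49.0], and no Hpgd. Mast cells (Cpa3 at least 3) numbered 5, 4 and 8, and the 8 of the 2-month library held 41 UMIs of Ptgs2. These gates hold too few cells for a comparison between libraries.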
